A study of Xenopus laevis with 12 samples.

Results

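The genes described here are those of serine synthesis and a set of known targets of the transcription factor ATF4, measured in whole *Xenopus laevis* embryos at stage 25. They were chosen by name: psat1, phgdh, psph, shmt2, asns, atf4, chac1, trib3, ddit3 and sesn2. *Xenopus laevis* carries homeologous copies of many genes, marked .L and .S after its long and short chromosomes, and every copy with a row in the deposited count table was taken. That gave 16 rows out of 42638, from 9 of the 10 names. Rows for trib3, asns.S and chac1.S were not among those of the table and were not analysed here. Of the 16 copies, 12 passed the filter on low counts, set at 1.8 CPM in at least 3 libraries, as did 21731 genes in all. CPM stands for counts relative to the sequencing total of the library. The other 4 were phgdh.L, asns.L, ddit3.L and ddit3.S.

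The study asked whether embryos withstand a teratogen better in larger groups. Its stage 25 samples were 12 RNA-seq libraries of wild-type embryos, in 4 groups of 3 libraries: untreated small, untreated large, thioridazine small and thioridazine large groups, with 100 embryos in a small and 300 in a large group by the study's text. Thioridazine, a phenothiazine drug that blocks dopamine receptors, was given between stages 12.5 and 25 at 90 µM according to the labels, with medium scaled to group size, and treated and control embryos were kept at the same temperature during that time. The study's legends and methods are not uniform on the dose and on the stages. Each library pooled 15 embryos, so that within a library a change in the share of cells that express a gene and a change in its RNA per cell cannot be told apart. The 3 libraries of a group carry the letters A, B and C and the sample numbers 1, 2 and 3. What a letter stands for is not given in the sources used here, so p-values measure only the spread between these samples, which may be technical.

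L-serine is made from the glycolytic intermediate 3-phosphoglycerate in successive steps. Phosphoglycerate dehydrogenase (phgdh) oxidises it, phosphoserine aminotransferase (psat1) adds the amino group and phosphoserine phosphatase (psph) removes the phosphate, after which mitochondrial serine hydroxymethyltransferase (shmt2) can pass a carbon of serine to the folate pool. In mammalian cells these enzymes are among the genes that ATF4 activates when amino acids are short, when the endoplasmic reticulum is stressed or when mitochondria are impaired, through phosphorylation of the translation factor eIF2. This program is the integrated stress response, and ATF4 itself is raised in it largely at the level of translation. Other ATF4 targets are asparagine synthetase (asns), the glutathione-degrading enzyme chac1, the pseudokinase trib3, the transcription factor CHOP (ddit3) and sestrin 2 (sesn2), an inhibitor of the growth regulator mTORC1.

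Across the 12 libraries the total expected count ranged from 3550845 to 7222013 in untreated and from 3497198 to 7822395 in thioridazine samples, with medians of 6018883 and 5928155. Depth differed between the untreated groups as well. Untreated small B and C had 3550845 and 3701983, against 5496905 to 7222013 in untreated large groups. Thioridazine small C and large C had 3639288 and 3497198. Of the letters, only A was compared with the others, and B was not compared with C. Within groups, 8875 of 21731 genes (40.8%) differed between A and the mean of B and C by edgeR's quasi-likelihood test with Benjamini-Hochberg adjustment. Each comparison is therefore also given with a replicate block, a fit in which libraries of the same number are compared with each other, wherever that changes a call. Markers of 9 tissues and cell types (28 of 29 symbols, 49 copies) were all detected in at least 1 library. Of 42 tested copies, 0 passed the test of thioridazine against untreated, with 1 at an unadjusted p under 0.05, by edgeR as by DESeq2. Of all genes, 0.0874% passed by edgeR and 1.69% had such a p. With so few calls, the count for the markers says little about the make-up of the tissues. The summed level of the muscle markers was 2323 to 4089 CPM in untreated and 1723 to 3296 CPM in thioridazine samples, and that of the epidermal markers 4428 to 9018 and 3812 to 8424 CPM.

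Under thioridazine, measured RNA of psat1, the middle step of serine synthesis, and of chac1 was higher, with calls that depended on the fit. Neither shmt2 nor atf4 itself passed the test. The .S copy of psat1 rose 2.83-fold over both group sizes and passed the test. The .L copy of psat1 (2.10-fold) and chac1.L (2.90-fold) missed the threshold by edgeR without the block and passed it with the block. Without the block, DESeq2 called all 3 copies, while edgeR with RLE size factors and limma voom called none of them. psph and phgdh.S were higher by 1.52- to 1.96-fold without passing by edgeR in either fit. Among 13 alternatives other than leaving out 1 library, psph.L and psph.S each passed in 1.

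The .S copy of psat1 was measured at 5.41, 5.20 and 7.71 CPM in the untreated small groups A, B and C, and at 8.61, 6.17 and 9.28 CPM in the untreated large groups. Under thioridazine it was at 24.2, 16.3 and 27.1 CPM in the small groups and at 16.2, 10.6 and 26.4 CPM in the large groups. All 6 thioridazine libraries lay above all 6 untreated libraries, the lowest being large group B. On the log2 scale the change was 1.50 ± 0.24 (SE, n = 6 against 6), with an adjusted p of 0.0455 by edgeR's quasi-likelihood test, and psat1.S ranked 19 of 21731 genes by p. With the replicate block the change was 1.49 ± 0.14 and the adjusted p 5.08e-05. Without the block, the call was kept in only 1 of the 12 fits that left out 1 library, that without thioridazine large B, and the adjusted p ran from 0.0271 to 0.215 over these fits. With the block it was kept in 12 of 12.

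The .L copy of psat1 was measured at 10.5, 7.80 and 10.0 CPM in the untreated small groups and at 13.1, 14.9 and 16.1 CPM in the untreated large groups. Under thioridazine it was at 39.3, 21.1 and 27.7 CPM in the small groups and at 20.6, 16.5 and 26.4 CPM in the large groups. Here too the groups did not overlap, but the gap was narrow, between 16.1 CPM in untreated large C and 16.5 CPM in thioridazine large B. The log2 change was 1.07 ± 0.18 (SE, n = 6 against 6) with an adjusted p of 0.0681 by edgeR without the block. With the block it was 1.06 ± 0.15 with an adjusted p of 0.00234, and psat1.L passed in 12 of 12 such fits that left out 1 library.

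**Figure D1:**
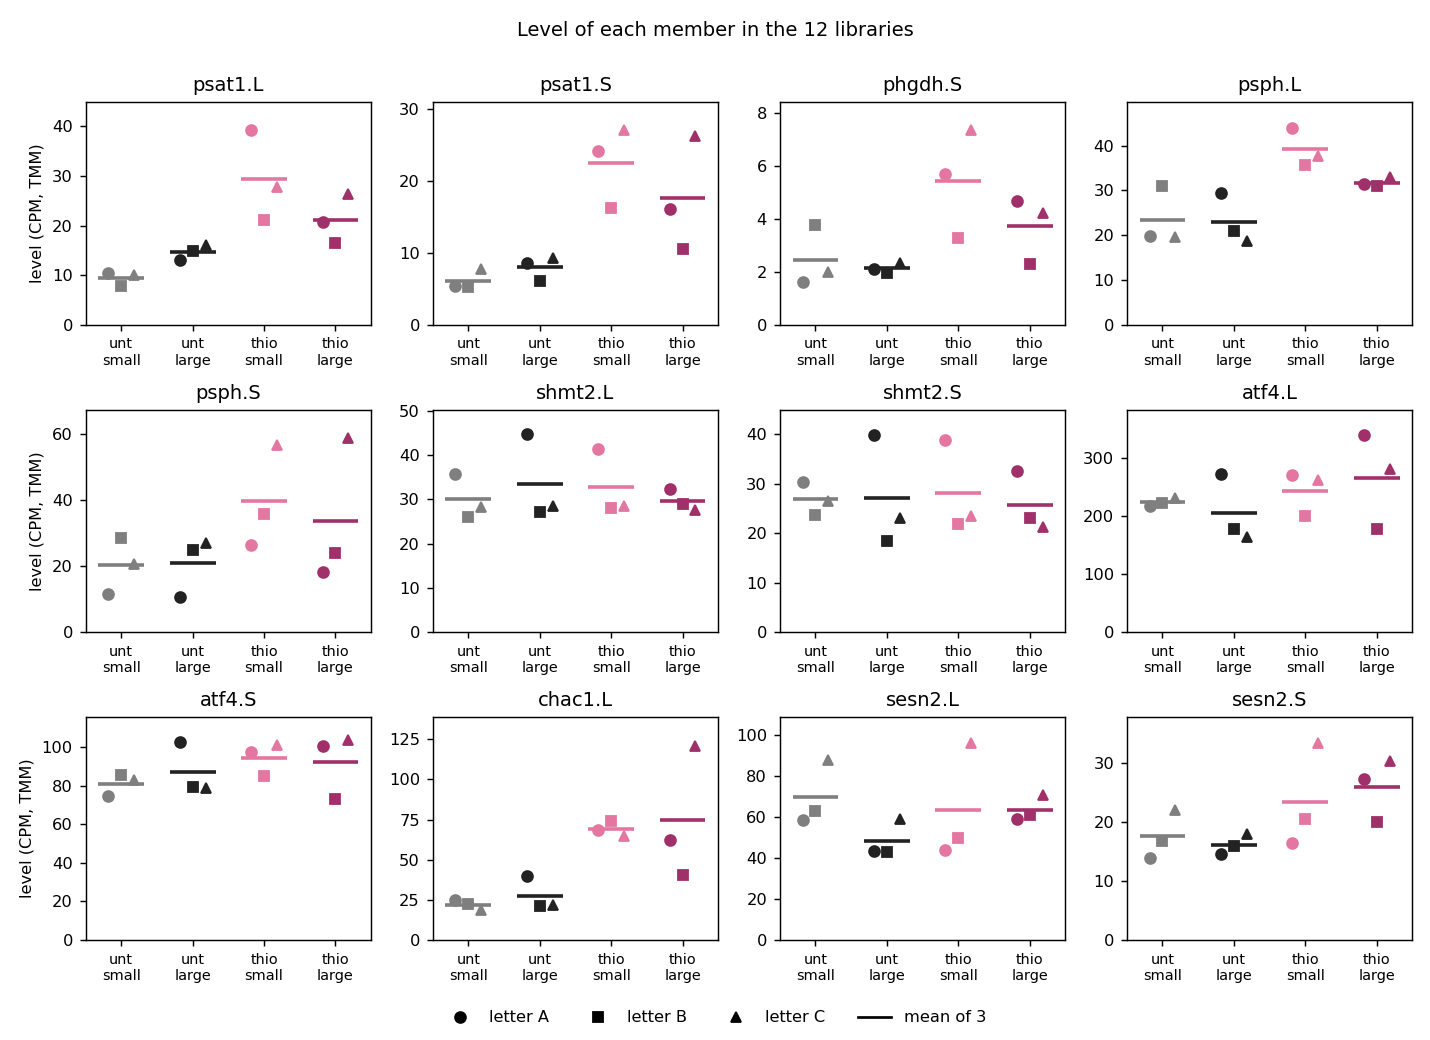
Level of each of the 12 copies that passed the filter, in CPM after TMM scaling, in each library (points, shaped by letter) of the 4 groups, with the mean of 3 libraries as a line. unt, untreated. thio, thioridazine. The 6 thioridazine libraries sit above the 6 untreated libraries for psat1.L, psat1.S and chac1.L, while the circles (letter A) lie highest of each group for shmt2.L and shmt2.S and lowest for psph.S.

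RSEM divides reads that fit both copies between them, so the levels of 2 homeologs are not fully independent. The .S copy took 29.3% to 43.6% of the psat1 counts in untreated libraries and 38.1% to 50.0% in thioridazine libraries, ranges that overlap. In every pair of the same size and letter, however, the share was higher under thioridazine. In small groups A it was 33.9% untreated and 38.1% under thioridazine, and in large groups C 36.6% and 50.0%. The widest Wilson 95% interval of such a share spanned 27.5 percentage points, an interval that covers counting error only. The intervals overlapped within each pair, and the difference in share was not tested. With the copies summed, psat1 had a log2 change of 1.24 ± 0.19 (SE) and an adjusted p of 0.0321 by edgeR, and of 1.23 ± 0.13 and 1.80e-04 with the block.

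Phosphoglycerate dehydrogenase, the first enzyme of the pathway, was scarce at this depth. Its .S copy had 7 to 16 counts in untreated and 14 to 40 counts in thioridazine libraries. The levels were 1.61, 3.76 and 2.00 CPM in untreated small, 2.12, 1.96 and 2.32 CPM in untreated large, 5.70, 3.27 and 7.38 CPM in thioridazine small, and 4.67, 2.28 and 4.24 CPM in thioridazine large groups. The thioridazine library was the higher in 5 of 6 pairs of the same size and letter, the exception being the small groups B. The log2 difference was 0.97 ± 0.32 (SE, n = 6 against 6) with an unadjusted p of 0.00951 and an adjusted p of 1.00 by edgeR, or 0.377 with the block. phgdh.L had 0 to 6 counts in a library and was not tested.

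Phosphoserine phosphatase closes the pathway. psph.L was at 19.8, 30.9 and 19.7 CPM in untreated small, 29.4, 20.9 and 18.7 CPM in untreated large, 44.0, 35.7 and 37.8 CPM in thioridazine small, and 31.3, 30.9 and 33.0 CPM in thioridazine large groups. The thioridazine library was the higher in 6 of 6 pairs, by 1.07 to 2.23 times, although the lowest thioridazine and the highest untreated library met at 30.9 CPM. The log2 difference was 0.60 ± 0.16 (SE), with an adjusted p of 0.735 by edgeR and of 0.110 with the block.

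psph.S was at 11.6, 28.6 and 20.6 CPM in untreated small and at 10.7, 25.0 and 27.1 CPM in untreated large groups. Under thioridazine it was at 26.3, 35.7 and 56.6 CPM in small and at 18.3, 23.9 and 58.8 CPM in large groups. The ranges overlapped widely, and letter A was the lowest library of each of the 4 groups. The log2 difference was 0.82 ± 0.35 (SE) with an adjusted p of 1.00 by edgeR, and 0.79 ± 0.18 with an adjusted p of 0.0949 with the block. In untreated small B, psph.L, psph.S and phgdh.S each had their highest untreated level, so leaving out that library raises their contrast by itself. In the blocked edgeR fit without it all 3 copies passed, at adjusted p of 0.0111, 0.0166 and 0.0361. This gives no support for a change. Over the 12 blocked fits that left out 1 library, psph.L passed in 1, psph.S in 2 and phgdh.S in 1. Such fits called 62 to 109 genes each.

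The next enzyme, shmt2, showed no such difference. shmt2.L ranged from 26.0 to 44.8 CPM (median 28.4) in untreated and from 27.6 to 41.3 CPM (median 28.8) in thioridazine libraries. shmt2.S ranged from 18.5 to 39.9 CPM (median 25.1) and from 21.2 to 38.9 CPM (median 23.3). The log2 differences were -0.03 (95% interval -0.35 to 0.30) and -0.01 (-0.43 to 0.42), so that changes of the size seen in psat1.S lay outside the interval of each copy. Their signs turned with several settings and carry no direction.

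Among the tested copies of the genes chosen by name that lie outside serine synthesis, chac1.L had the largest log2 change. Genes of the related lists, given further on, were not part of this ranking. The enzyme chac1 splits glutathione and is induced in mammalian cells by ATF4. chac1.L was at 25.2, 22.3 and 18.6 CPM in untreated small and at 39.7, 21.2 and 21.6 CPM in untreated large groups. Under thioridazine it was at 68.3, 73.8 and 64.9 CPM in small groups, which lay close together, and at 62.5, 40.3 and 121 CPM in large groups, which did not. The lowest thioridazine library, large B, lay just above the highest untreated one, large A.

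The log2 change of chac1.L was 1.53 ± 0.26 (SE, n = 6 against 6), with an adjusted p of 0.0574 by edgeR. With the block it was 1.53 ± 0.24 and passed, with an adjusted p of 0.0141. Among blocked fits that left out 1 library, it passed in 10 of 12, and the adjusted p was 0.224 without untreated small A and 0.0540 without untreated small C. In the 8 libraries lettered B and C alone, a subset chosen after the data were seen, the log2 change was 1.795 with an adjusted p of 0.704 in the blocked fit, while psat1.S (1.46, adjusted p 2.95e-04) and psat1.L (0.94, 0.00753) passed.

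The 2 copies of atf4, the factor behind the program, did not pass. atf4.L was at 216, 223 and 231 CPM in untreated small, 272, 178 and 164 CPM in untreated large, 271, 199 and 261 CPM in thioridazine small, and 339, 178 and 281 CPM in thioridazine large groups. The log2 difference was 0.25 ± 0.18 (SE), with a 95% interval of -0.11 to 0.61. atf4.S ranged from 74.8 to 103 CPM (median 81.1) in untreated and from 72.8 to 103 CPM (median 99.0) in thioridazine libraries, a log2 difference of 0.15 with an interval of -0.10 to 0.41. In 5 of 6 pairs atf4.L was higher under thioridazine, with ratios from 0.894 to 1.71, and atf4.S was higher in 3 of 6. Neither copy passed with or without the block, and both intervals lie below the fold changes of psat1.S and chac1.L.

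For sestrin 2, sesn2.S was at 13.9, 16.8 and 22.0 CPM in untreated small, 14.6, 16.0 and 18.0 CPM in untreated large, 16.5, 20.5 and 33.3 CPM in thioridazine small, and 27.2, 20.0 and 30.3 CPM in thioridazine large groups. The thioridazine library was higher in 6 of 6 pairs, by 1.19 to 1.87 times, while the groups overlapped. The log2 difference was 0.54 ± 0.20 (SE), with an adjusted p of 1.00 by edgeR and 0.182 with the block. sesn2.L ranged from 43.2 to 87.7 CPM in untreated and from 43.7 to 96.2 CPM in thioridazine libraries, and its log2 difference was 0.12 ± 0.20.

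The rows of the CHOP gene and of asparagine synthetase fell below the filter on low counts. ddit3.L had 2 to 7 counts in untreated and 5 to 9 counts in thioridazine libraries. ddit3.S had 1 to 3 counts in untreated and 0 to 3 counts in thioridazine libraries. With the copies summed, ddit3 passed the filter, and its log2 difference was 0.23 ± 0.38 (SE), with an unadjusted p of 0.561 and an adjusted p of 1.00 by edgeR. asns.L had 0 to 4 counts in untreated and 0 to 10 counts in thioridazine libraries, the highest being thioridazine small B. asns.L and the single copies of ddit3 were left out of the filtered fits, and counts this low limit what could be seen. For ddit3 with the copies summed, no difference passed.

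**Figure D2:**
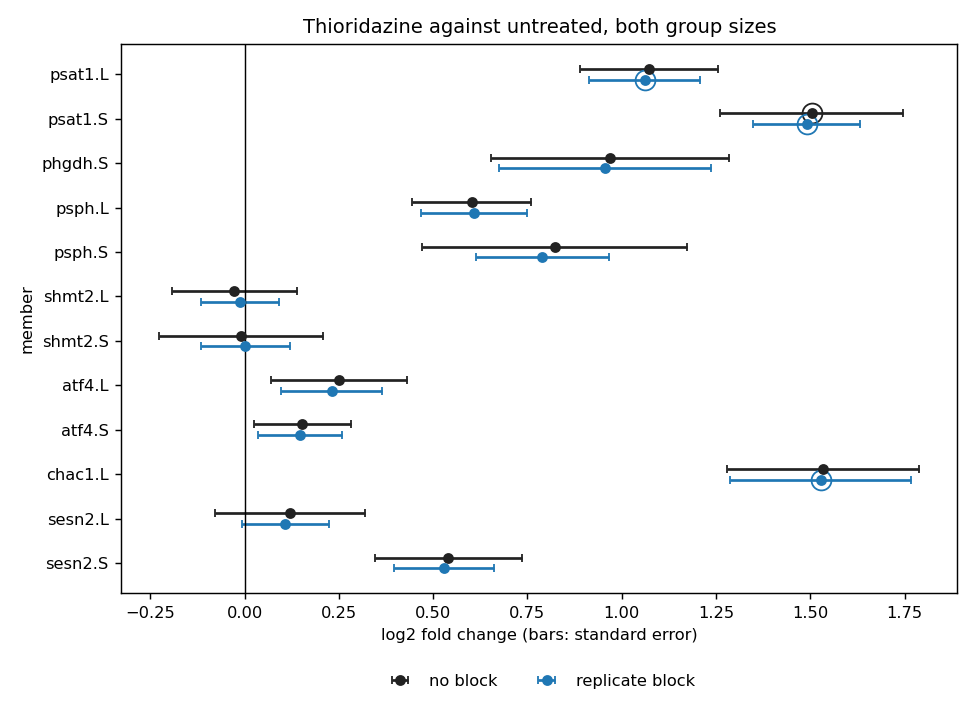
Log2 fold change of thioridazine against untreated over both group sizes for the 12 copies that passed the filter, without (black) and with (blue) the replicate block. Bars are standard errors and rings mark an adjusted p under 0.05: psat1.S in both fits, psat1.L and chac1.L with the block.

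Counted together, 1 of the 12 copies passed by edgeR without the block, against 19 of 21731 genes (0.0874%), and 3 of 12 passed with it, against 94 genes (0.433%), all of them higher under thioridazine. Without the block DESeq2 called 3 of 12, psat1.L, psat1.S and chac1.L, against 48 genes higher (0.221%), while edgeR with RLE size factors and limma voom called 0 of 12, with psat1.S at adjusted p of 0.0506 and 0.105. At an unadjusted p under 0.05 there were 7 of 12 copies, psat1.L, psat1.S, phgdh.S, psph.L, psph.S, chac1.L and sesn2.S, against 1.69% of all genes. All 6 thioridazine libraries exceeded all 6 untreated libraries for 3 of 12 copies, as they did for 0.258% of genes. The log2 difference was above 0 for 10 of 12 copies with a median of 0.57, beside 47.5% of all genes and a median of -0.01. The copies of a gene share reads and were chosen with results of these data known, so these counts describe the 12 copies and are no test of them.

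By group size, the ratio of thioridazine to untreated was larger in small than in large groups at every letter for both copies of psat1, a difference that did not pass its own test, given with the group sizes. In small groups, psat1.S was 4.47, 3.14 and 3.52 times as high under thioridazine as untreated at letters A, B and C, and psat1.L 3.73, 2.71 and 2.77 times. In large groups the ratios were 1.88, 1.72 and 2.84 for psat1.S and 1.57, 1.11 and 1.64 for psat1.L. The 2 copies of sestrin 2 went the other way, with a larger ratio in large groups at every letter. For sesn2.L the ratios were 0.747, 0.794 and 1.097 in small and 1.36, 1.41 and 1.19 in large groups, and for sesn2.S 1.19, 1.22 and 1.52 in small and 1.87, 1.25 and 1.68 in large groups. Mean levels of sesn2.L were 69.7 CPM in untreated small and 48.6 CPM in untreated large groups. Under thioridazine they were 63.3 and 63.6 CPM. In all, the ratio was larger in small groups at every letter for 4 of 12 copies (psat1.L, psat1.S, psph.S and shmt2.L), beside 16.3% of all genes. It was larger in large groups at every letter for 2 of 12, a share near the 13.8% of all genes. For chac1.L the ratio was higher in small groups at 2 of 3 letters, with 2.72, 3.32 and 3.50 in small and 1.57, 1.90 and 5.60 in large groups.

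In small groups, 0 of 12 copies passed without the block by edgeR, beside 0.0092% of all genes, with 5 at an unadjusted p under 0.05, beside 1.01%. DESeq2 without the block called psat1.L, psat1.S and chac1.L, beside 0.115% of genes. The log2 differences were 1.88 ± 0.35 (SE, n = 3 against 3) for psat1.S and 1.63 ± 0.26 for psat1.L, with adjusted p of 0.289 and 0.197. With the block, psat1.S (1.91 ± 0.21, adjusted p 5.26e-04) and psat1.L (1.63 ± 0.22, 0.00339) passed, against 0.179% of genes, and both did so in 12 of 12 fits that left out 1 library. chac1.L did not pass, at 1.67 ± 0.34 and an adjusted p of 0.172.

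In large groups, 0 of 12 copies passed without the block by edgeR, again beside 0.0092% of genes, with 3 at an unadjusted p under 0.05, beside 1.93%, and 0 passed by DESeq2. The 3 copies with such a p by edgeR were psat1.S at 1.12 ± 0.33 (SE, n = 3 against 3), chac1.L at 1.42 ± 0.36 and sesn2.S at 0.67 ± 0.28 on the log2 scale. psat1.L, at 0.52 ± 0.25, was not among them, with an unadjusted p of 0.0642 by edgeR. With the block, only psat1.S passed by edgeR, at 1.07 ± 0.19 and an adjusted p of 0.0299, beside 0.258% of genes. It kept that call in 4 of the 12 blocked fits that left out 1 library, with an adjusted p of up to 0.275.

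**Figure D3:**
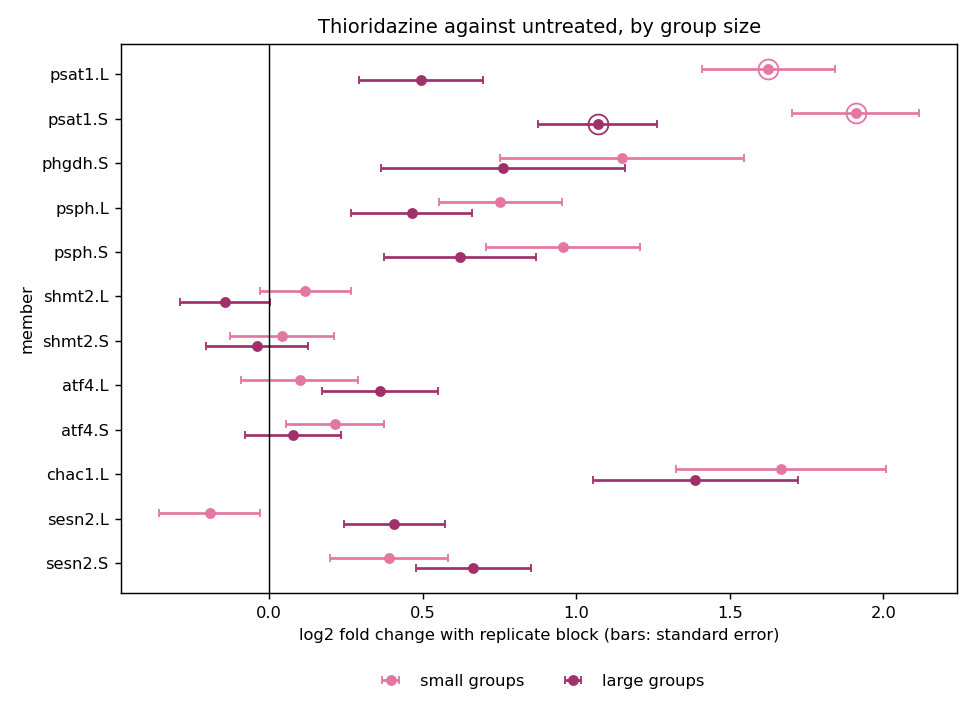
Log2 fold change of thioridazine against untreated in small (pink) and large (purple) groups for the 12 copies, in the fit with the replicate block, with standard errors. Rings mark an adjusted p under 0.05: psat1.L and psat1.S in small groups and psat1.S in large groups, where psat1.L was at 0.50.

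Group size itself was also compared at each treatment. Untreated, psat1.L was higher in large than in small groups at 3 of 3 letters, with means of 14.7 ± 1.48 and 9.45 ± 1.45 CPM (SD, n = 3), and psat1.S likewise at 3 of 3 letters, with 8.02 ± 1.63 and 6.11 ± 1.39 CPM. The shallow libraries untreated small B and C held only 18 and 27 counts of psat1.S. Under thioridazine both copies were lower in large groups at 3 of 3 letters, at 21.2 ± 4.95 against 29.4 ± 9.20 CPM for psat1.L and 17.7 ± 7.997 against 22.6 ± 5.58 CPM for psat1.S. At letter C that gap was small, with 87 counts in the large against 94 in the small group for psat1.L, and 87 against 92 for psat1.S. This pattern, higher in large groups at every letter untreated and lower at every letter under thioridazine, was shown by 2 of 12 copies and by 1.83% of all genes.

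None of these differences by group size passed the test, with or without the block. Without it, in untreated samples psat1.L had a log2 difference of 0.63 ± 0.26 (SE), with an unadjusted p of 0.0351 and an adjusted p of 1.00 by edgeR, the single copy of 12 with an unadjusted p under 0.05, beside 1.76% of genes. In thioridazine samples, 0 of 12 copies had an unadjusted p under 0.05 by edgeR without the block, beside 0.727% of genes, and psat1.L was at -0.48 ± 0.25. The difference between the responses, large minus small, was -1.11 ± 0.37 for psat1.L, with an unadjusted p of 0.0101 and an adjusted p of 1.00, again the single copy of 12 without the block, beside 0.989% of genes. It was -0.76 ± 0.48 for psat1.S with a 95% interval of -1.70 to 0.18. DESeq2 without the block called 0 of the 12 copies in these 3 comparisons as well.

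With the block more copies had an unadjusted p under 0.05 by edgeR, in comparisons where more genes did. In untreated samples there were 2 of 12, beside 7.59% of all genes. These were psat1.L (p 0.0112, adjusted p 0.496), higher in large groups, and sesn2.L at -0.51 ± 0.16 (p 0.00704, adjusted p 0.465), lower in them. In thioridazine samples there were 2 of 12, beside 2.98% of genes, psat1.L at -0.48 ± 0.20 (p 0.0265) and psat1.S at -0.41 ± 0.18 (p 0.0365), both with an adjusted p of 0.999. For the difference between the responses there were 3 of 12, beside 5.41% of genes, with adjusted p of 0.810 for psat1.L and 0.895 for psat1.S and sesn2.L. The sign of sesn2.L, at 0.60 ± 0.23, was opposite to that of psat1.L and psat1.S, at -1.13 ± 0.30 and -0.84 ± 0.29.

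**Figure D4:**
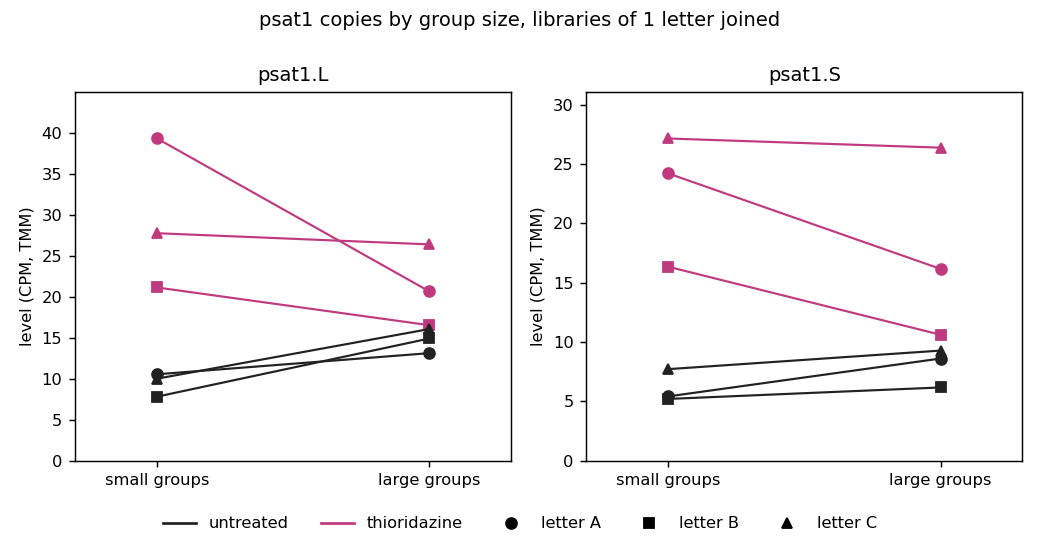
Level of psat1.L and psat1.S in CPM in small and large groups, with libraries of the same letter and treatment joined by a line. Untreated lines (black) go up from small to large groups at all 3 letters and thioridazine lines (pink) go down, and for psat1.L they come within 16.1 and 16.5 CPM of each other in large groups.

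The copies varied between letters as well. Between the libraries lettered A and the mean of B and C, 5 of 12 copies differed. That share is close to the 40.8% of all genes and is no trait of the members. psph.S was lower in A by 1.05 ± 0.19 (SE) on the log2 scale, with an adjusted p of 7.67e-04 by edgeR, and sesn2.L lower by 0.35 ± 0.12, with an adjusted p of 0.0354. shmt2.S (0.65 ± 0.12, 8.25e-04), shmt2.L (0.46 ± 0.11, 0.00366) and atf4.L (0.37 ± 0.14, 0.0493) were higher in A. The call of atf4.L was kept in 2 of 12 fits that left out 1 library, those without untreated small A and without untreated small B, with an adjusted p of up to 0.243, and was not made by DESeq2 or with RLE size factors. That of sesn2.L was kept in 7 of 12, with an adjusted p of up to 0.211. The share of psph counts on the .S copy was 26.7% to 37.5% in A and 43.6% to 64.0% in B and C, without overlap. psat1.L, psat1.S and chac1.L did not pass this comparison, at differences of 0.20, 0.06 and 0.21 with standard errors of 0.15, 0.14 and 0.25.

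The rest of the pathway was read from 8 lists of related genes, which held 161 tested copies. Without the block 0 of them passed for thioridazine against untreated by edgeR or by limma voom. At an unadjusted p under 0.05 there were 19 and 17, beside 1.69% of all genes by edgeR. DESeq2 without the block called 3, beside 0.221% of genes called higher. Counts above 0 and medians of each list are given without the block, where 47.5% of all genes were above 0. With the block 7 passed, all higher, beside 0.433% of all genes. These were aldh1l2.S, gclc.L, gclc.S, slc7a5.S, atf3.S, nfe2l2.S and nupr1.L. The lists were chosen with earlier results of these data known, and nupr1.L was named after its value was seen. Counts over the lists are therefore a description and no test.

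Of the other enzymes of serine and one-carbon metabolism, 8 of 25 copies were above 0, with a median log2 difference of -0.05. The copy that passed with the block was aldh1l2.S, a mitochondrial enzyme of the folate pathway, at 3.68 ± 1.15 CPM untreated and 8.18 ± 3.21 CPM under thioridazine (SD, n = 6), with a log2 change of 1.08 and an adjusted p of 0.0451 by edgeR. It kept this call in only 1 of the 12 blocked fits that left out 1 library, that without untreated small B, with an adjusted p of up to 0.187. The next in order of p, mtrr.L, cth.L and mthfd2l.S, were at -0.28, 0.28 and 0.24 and did not pass. Of the enzymes of amino acid and glutathione metabolism known as ATF4 targets, 14 of 17 were above 0, with a median of 0.21. Both copies of gclc, the catalytic subunit of the first enzyme of glutathione synthesis, rose in the blocked fit, gclc.S by 1.09 (adjusted p 0.00241, edgeR) and gclc.L by 0.68 (0.00536). pycr1.L, of proline synthesis, was at 0.30 and did not pass.

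Among amino acid transporters, 15 of 19 copies were above 0, with a median of 0.21. slc7a5.S, the light chain of the leucine transporter LAT1, rose from 46.9 ± 8.99 to 78.1 ± 17.0 CPM (SD, n = 6) in the blocked fit, by 0.72 on the log2 scale with an adjusted p of 0.0194 by edgeR. The call was kept in 5 of the 12 blocked fits that left out 1 library, with an adjusted p of up to 0.114, reached without untreated small C. Its other copy slc7a5.L (0.48), the shared heavy chain slc3a2.S (0.52) and the cationic transporter slc7a3.L (0.39) had adjusted p of 0.186, 0.225 and 0.687 in that fit.

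The transcription factors and regulators of the integrated stress response had 25 of 28 copies above 0, with a median of 0.27. In small groups 19 of 28 were above 0, with a median of 0.13, and in large groups 25 of 28, with a median of 0.44. All genes stood at 48.7% and 48.5%. With the block, 0 copies passed in small groups and 1, atf3.S, in large groups. For the difference between the responses 0 copies passed by edgeR in either fit. Between the sizes themselves, 6 of 28 copies were higher in large groups when untreated, with a median of -0.18. Under thioridazine 16 of 28 were, with a median of 0.04, beside 52.4% and 48.9% of all genes. atf3.S, a stress-induced relative of atf4, rose in the blocked fit from 2.25 ± 0.76 to 6.89 ± 3.13 CPM (SD, n = 6), by 1.64 with an adjusted p of 7.12e-04 by edgeR. nfe2l2.S, which encodes the oxidative stress factor NRF2, rose by 0.82 (0.0146), and nupr1.L, named after its value was seen, by 1.40 (0.0167). Over the 12 blocked fits that left out 1 library, nfe2l2.S passed in 5 and nupr1.L in 6, with adjusted p of up to 0.0783 and 0.125, while atf3.S and both gclc copies passed in 12. cebpg.S, a binding partner of ATF4, and atf3.L were at 0.53 and 1.17 with adjusted p of 0.159 and 0.110.

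The remaining lists had medians between -0.02 and 0.09. The eIF2 kinases and eIF2 machinery had 9 of 19 copies above 0 and a median of 0.00, led by eif2ak3.S, the kinase PERK, at 0.42 ± 0.15 (SE, adjusted p 1.00 by edgeR). The XBP1 and ATF6 arms of the unfolded protein response, which act beside the PERK arm, had 29 of 36 above 0 and a median of 0.09, and the p53 targets, a group to which sesn2 also belongs, 10 of 15 and 0.07. Relatives of the members had 3 of 9 above 0 and a median of -0.02, with trib1.S, a relative of trib3, at 0.78 ± 0.42. In these 4 lists 0 copies passed in either fit, or by DESeq2, with 1 copy, eif2ak3.S, at an unadjusted p under 0.05 without the block by edgeR. With the block, 5 of the 36 copies of the XBP1 and ATF6 arms had such a p by edgeR, and 1 in each other list. Of all 21731 genes, 1079 did in that fit.

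**Figure D5:**
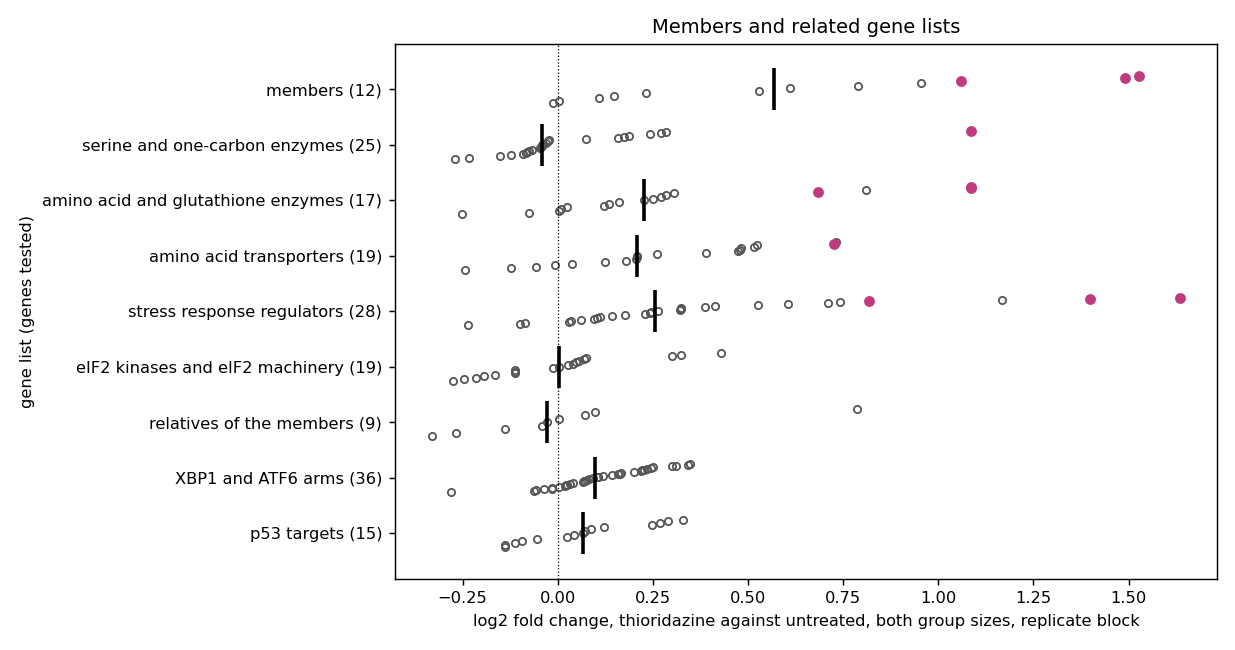
Log2 fold change of thioridazine against untreated over both group sizes, with the replicate block, for each tested copy of the 12 members and of 8 related lists (number of copies in parentheses). Filled points passed at an adjusted p under 0.05 and black bars are medians, which lie at 0.57 for the members and between -0.04 and 0.25 for the lists. aldh1l2.S belongs to the serine list and to the amino acid list, where its point lies on that of gclc.S.

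The genes whose pattern was most like that of psat1.S over the 12 libraries, after the mean of each letter was removed from log2 CPM, were LOC108696199 (Pearson r of 0.973), ldlr.S, the LDL receptor (0.971), pnpla3.L (0.964), gclc.L (0.958) and cyp2j2.L (0.955). psat1.L was 12th in that order of all genes at 0.934 and chac1.L 14th at 0.933, while psph.L was at 0.891, psph.S at 0.880 and phgdh.S at 0.801. The order depended on removing the letter means. Without that step, r was 0.924 for psat1.L and 0.899 for chac1.L. For the 5 genes named first it then ran from 0.678 (pnpla3.L) to 0.869 (cyp2j2.L). The 12 points share the letters and the split into treated and untreated libraries, so the values are a description.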

How the data were processed

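Total RNA of pooled whole embryos was depleted of rRNA and sequenced as single-end reads by the study. Before deposit, the reads were trimmed and aligned by the authors, who made the expected counts with RSEM, 25.7% of which were not whole. Bowtie2, STAR, RSEM and limma stand in the submitters' processing notes with no version. No source used here gives a version of these tools or the build of the genome they were run on, while the study does name a release for its rRNA sequences. For 21720 genes, log2 CPM made by the authors were deposited too and served only as an alternative. All 16 identifiers matched a RefSeq symbol of the assembly Xenopus_laevis_v10.1, used for names alone.

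Expected counts were rounded, filtered at 1.8 CPM in at least 3 libraries, scaled by TMM and tested with edgeR 4.0.16 in R 4.3.3 (quasi-likelihood, robust, Benjamini-Hochberg adjustment over 21731 genes, threshold 0.05). Means of 4 groups were fitted to 12 libraries with 8 residual degrees of freedom. The comparison of letters had the sample number as a block. For the others the block was an alternative. In each of the 18 pairs of libraries with 1 number, the deviations from group means had a correlation between 0.282 and 0.769, so a number was treated as pairing its samples. Intervals of fold changes are normal 95% intervals from the standard error. The script was tested on simulated data.

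Alternatives were RLE size factors, no filter, the filterByExpr filter, DESeq2 1.42.0, limma 3.58.1 (voom, voom with 2 surrogate variables from sva 3.50.0, and trend on the deposited log2 table), the replicate block, summed homeologs and leaving out each library. DESeq2 with the block and fits on the 8 libraries lettered B and C were added after seeing the data. Genes named were all members, the 4 of each list with the smallest p for thioridazine against untreated, and the 5 most like psat1.S. The members, lists and tests were chosen with earlier results of these data known. No sequences were used here.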

Additional observations from a re-analysis of the deposited data

Results flagged for a closer look

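In psat1.L the response to thioridazine differed between large and small groups by -1.109 on the log2 scale, and in psat1.S by -0.761. They stand out because at letters A, B and C alike the level was higher in large than in small groups when untreated and lower under thioridazine, a pattern shared by 397 of 21731 genes (1.83%). At letter C under thioridazine the levels in small and large groups lay close, at 27.7 and 26.4 CPM for psat1.L and 27.1 and 26.4 CPM for psat1.S. The test of the difference itself, edgeR's interaction with Benjamini-Hochberg adjustment, was not passed by either copy: the unadjusted p were 0.0101 and 0.137, and with the replicate block 0.00177 and 0.0104, with adjusted p of 0.810 and 0.895. Leaving out 1 library moved the difference between -1.32 and -0.83 for psat1.L and between -1.15 and -0.49 for psat1.S.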

How the results depend on the processing

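Of 2315 fold changes of 65 results under the alternatives, 2289 kept their direction. The 26 that turned were of shmt2.L, shmt2.S and sesn2.L. Genes of the lists were among these results for their small p in the same comparison, and the fits share libraries. The value of summed homeologs was also entered for each single copy. The count of kept directions is therefore a description and no test. shmt2.L was at 0.045 in the B and C libraries and 0.048 there with the block, and between -0.132 and 0.111 over fits that left out 1 library. shmt2.S was at 0.025 with voom and 2 surrogate variables and at 0.002 with the replicate block, and between -0.165 and 0.189, and sesn2.L between -0.092 and 0.224, over fits that left out 1 library.

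Counts of calls moved with the fit, and the cause was not tested. For thioridazine against untreated over both sizes, in small groups and in large groups, the counts of genes were 19, 2 and 2 without the block and 94, 39 and 56 with it. In the same order they were 50, 25 and 27 with DESeq2, 120, 52 and 93 with DESeq2 and the block, 127, 47 and 48 with voom and 2 surrogate variables, and 69, 32 and 41 with homeologs summed and the block. In the B and C libraries they were 25, 14 and 13, and 71, 40 and 49 with the block, and voom gave 1 in large groups. Leaving out 1 library gave 2 to 109, 2 to 41 and 0 to 77 over fits with and without the block.

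For group size, 0 genes passed in untreated, thioridazine or interaction by edgeR, with 383, 158 and 215 at an unadjusted p under 0.05. DESeq2 gave 1, 3 and 1, and with the block 32, 1 and 2. The B and C libraries with the block gave 1024 in untreated samples and 2 for the interaction, the trend fit on the deposited table gave 1 in thioridazine samples, and leaving out 1 library gave 0 to 46, 0 to 1 and 0 to 1.

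Of the 12 members, 1 passed over both sizes. The number was 0 with RLE size factors, with voom and in the B and C libraries, 2 with the trend fit and in B and C with the block, 3 with DESeq2, no filter or the replicate block, and 4 with voom and 2 surrogate variables or DESeq2 with the block. It was 0 to 6 when 1 library was left out, 6 being the blocked fit without untreated small B. In small groups the number was 0, then 2 with the block, in all libraries and in B and C, 3 with DESeq2, with or without the block, 3 with voom and 2 surrogate variables, and 0 to 3 when 1 library was left out. In large groups it was 0, then 1 with the block, 2 with DESeq2 and the block, and 0 to 1 when 1 library was left out. Between letters it was 5, and 3 to 5 when 1 library was left out.

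By edgeR on all 12 libraries, with the copies kept apart, the block changed no call of a member beyond those given. With DESeq2 it added calls of members over both sizes and in large groups, as counted above. At 7 to 40 counts of phgdh.S and 0 to 10 of the untested copies, depth limits what can be seen, and 3 libraries per group limit every comparison by size.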
